A study of Mus musculus with 36 samples.

Results

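The genes described here carry fatty acids and other lipids through import, activation, oxidation, synthesis, storage and release. They are the 49 mouse genes whose single symbol in the platform annotation belongs to one of a set of families of lipid enzymes and carriers, chosen by name and not by any measured value. They cover 61 of the 15388 spots and 49 of the 6971 genes with a single symbol. Roles were assigned by family name, which does not settle what each single enzyme does. By these roles, 13 were placed in fatty acid oxidation and 7 with enzymes that join fatty acids to coenzyme A or release them from it. A further 10 were placed in synthesis, 14 with lipases or abhydrolases and 5 with carriers. The oxidation genes were Cpt1a, Cpt2, Acadm, Acadl, Acads, Acadvl, Acadsb, Acad8, Acad9, Acad11, Hadh, Hadha and Hadhb. The activation genes were Acsl3, Acsl4, Acsl5, Acot2, Acot7, Acot9 and Acot13, and the synthesis genes were Elovl3, Elovl5, Elovl6, Fads1, Fads2b, Fads6, Agpat1, Agpat3, Agpat5 and Lpin2. The lipases and abhydrolases were Lpl, Pnpla2, Pnpla7, Pnpla8, Abhd3, Abhd4, Abhd10, Abhd11, Abhd12, Abhd13, Abhd14a, Abhd14b, Abhd16a and Abhd17a, and the carriers were Fabp3, Apoa1, Apoa4, Apob and Apoc2.

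Tissues take up fatty acids that lipoprotein lipase frees from circulating lipoproteins, and acyl-CoA synthetases trap them in the cell as coenzyme A esters. The carnitine palmitoyltransferases pass these esters into mitochondria, where acyl-CoA dehydrogenases and the trifunctional protein shorten them step by step with oxygen as the final electron acceptor. Elongases, desaturases and acyltransferases instead build longer chains and glycerolipids. In the lung, type II alveolar cells use that route to make the phospholipids of surfactant.

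Whole lungs of BALB/c mice kept at 0.5 atm for 1, 3, 7, 14 or 21 days (the hypoxia phase) were compared with lungs of control mice of the same time point. Further mice had 21 days at 0.5 atm and then 1, 3, 7 or 14 days of recovery, here days 22, 24, 28 and 35 (the recovery phase), each again with its own control. Every time point had 4 spotted 2-colour cDNA arrays, 36 in all, and each array set a pool of RNA from 5 exposed mice against a pool from 5 controls. The protocol describes 1 pool of 5 mice per condition and time point, so the 4 arrays of a time point may share that pool. The labels do not number the pools, and a p-value of a single day measures spread that may be technical only.

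Values are log2 ratios, with positive taken as higher in the exposed lung. That direction is likely and not settled. The protocol pairs samples with dyes only by naming the hypoxic RNA and Cy5 ahead of the control and Cy3, and no dye swap is recorded. Without a recorded swap, a fixed dye offset of a spot cannot be told apart from a difference from control in a mean over days. The arrays held values for 14186 to 15042 spots, array medians lay between -0.016 and 0.050, and array SDs between 0.17 and 0.52. The widest array was replicate 1 of day 28. A log2 ratio carries no level, so the lung label could not be checked against marker levels. Of the 49 genes, 29 had a value on every array and the fewest for any gene was 30 arrays. Replicates 1 and 2 of a day stood apart from replicates 3 and 4: their deviations from the day means had a median Pearson r of 0.39 with the other number of the same pair and -0.39 with a number of the other pair, across arrays of different days. Deviations from a day mean balance out, so the negative value follows in large part from the positive ones within pairs. Because the pairs stood apart, results are also given for each pair of replicates alone.

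The first comparison asked which lipid genes differed from control lung over the hypoxia phase as a whole. Lipoprotein lipase, the acyl-CoA synthetases Acsl4 and Acsl3 and 6 other lipases or abhydrolases fell, together with the medium-chain dehydrogenase Acadm, Cpt1a, and the elongases Elovl5 and Elovl6. Abhd17a, Elovl3 and Cpt2 rose. In all, 13 of 49 genes were lower (26.5%) and 3 were higher (6.12%) at a limma adjusted p under 0.05, with the 5 day means of the phase as the replicates. Among all 12159 features tested, 17.7% were called lower, 24.7% higher and 42.4% in either direction, against 32.7% of the lipid genes in either direction. Were the ratios to run the other way, 13 would be higher and 3 lower. The median log2 ratio of the 49 genes was -0.044, against 0.026 over all features. In whole lung, fewer cells of a type and less RNA per cell cannot be told apart.

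**Figure D1:**
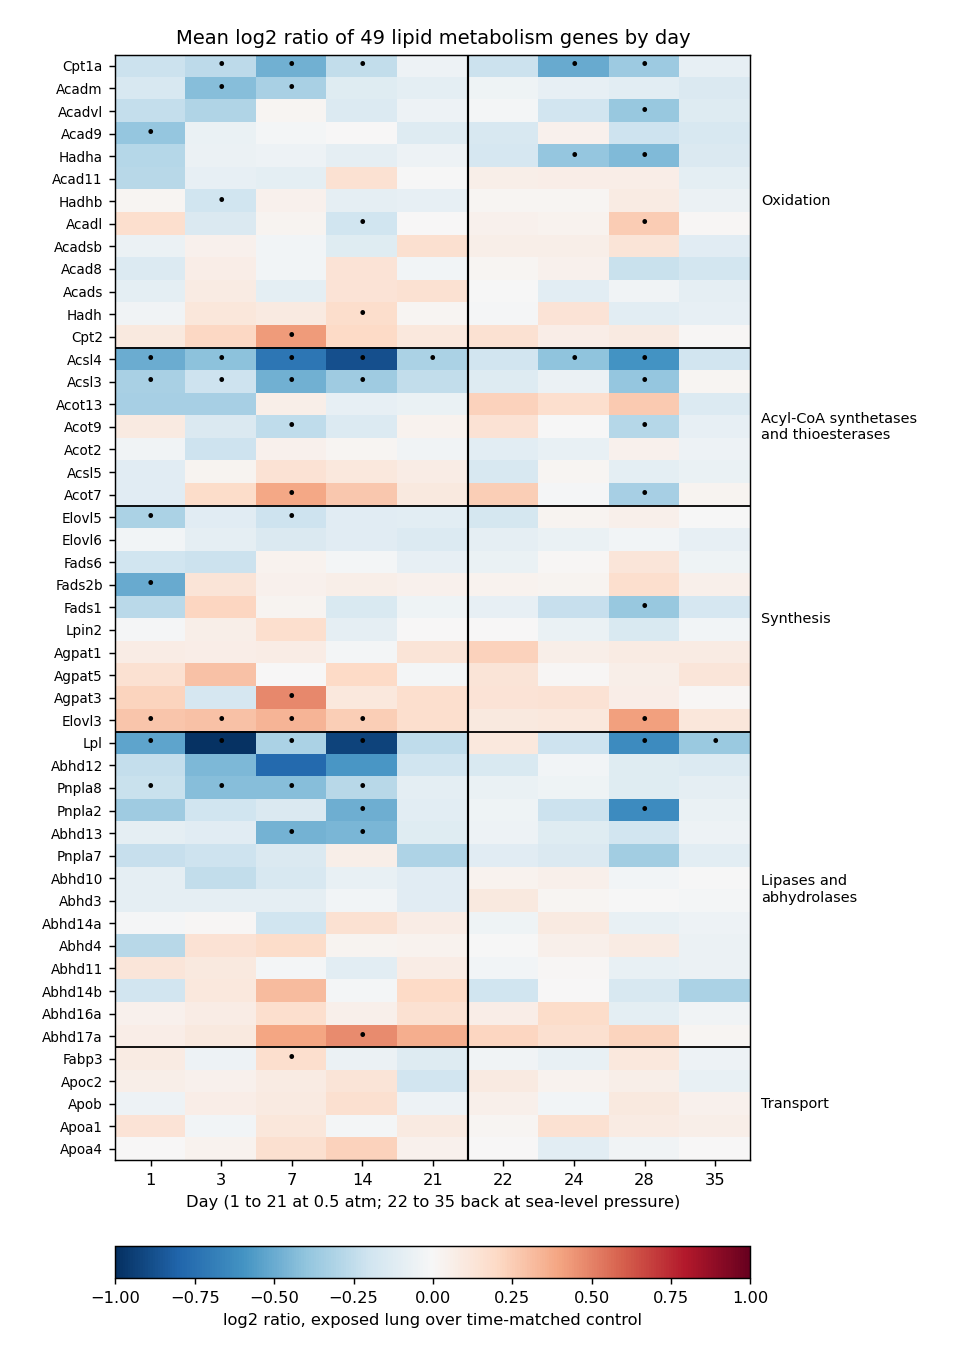
Mean log2 ratio of each of the 49 genes (rows, grouped by role) at each of the 9 time points (columns). Blue is lower and red higher in exposed lung, the vertical line parts hypoxia from recovery, and a dot marks a limma adjusted p under 0.05 at that day. Acsl4 carries 7 dots and Lpl 6, all on blue. The rows of the carriers stay pale, with a dot for Fabp3 at day 7.

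Lpl, which encodes the enzyme that splits triglycerides of circulating lipoproteins at the capillary wall, had the lowest mean of the 49 genes. Its day means were -0.52, -0.99, -0.32, -0.93 and -0.26 at days 1, 3, 7, 14 and 21, and 0.11, -0.21, -0.63 and -0.37 at days 22, 24, 28 and 35. All 20 hypoxia arrays were below 0, with a lowest value of -1.22, a median of -0.51 and a highest of -0.13. Recovery arrays ran from -0.89 through a median of -0.26 to 0.21, so the phases overlapped. Days 3 and 14 were far lower than days 7 and 21, with no overlap between their arrays. Over the hypoxia phase Lpl fell by 0.60 ± 0.34 on the log2 scale (SD over days, n = 5, limma adjusted p = 0.00195), which is 0.659 of the control level.

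Among genes for proteins that act on the enzyme, Gpihbp1 and Lmf1 passed the threshold in opposite directions, and Apoc2, its activator on lipoproteins, did not pass (0.02, limma adjusted p = 0.721). Gpihbp1, which encodes the protein that holds lipoprotein lipase on capillary endothelium, fell by 0.43 ± 0.17 (SD over days, n = 5, limma adjusted p = 0.000428). It was below 0 on 19 of 20 hypoxia arrays, although the mean was -0.22 in replicates 1 and 2 and -0.65 in replicates 3 and 4. Lmf1, an endoplasmic reticulum protein needed for the lipase to mature, rose by 0.31 ± 0.13 (SD over days, n = 5, limma adjusted p = 0.00151). At day 22 the day means were 0.11 for Lpl, 0.12 for Gpihbp1 and 0.03 for Lmf1.

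**Figure D2:**
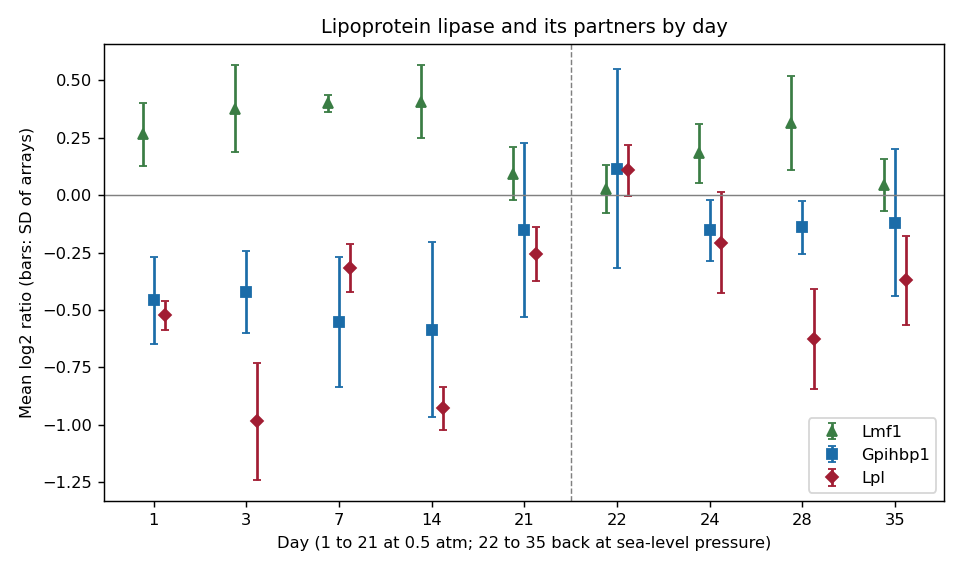
Mean log2 ratio of Lmf1 (triangles), Gpihbp1 (squares) and Lpl (diamonds) at each time point, with bars for the SD of the arrays of a day. Over days 1 to 14 Lmf1 lies above 0 and the others below it. Lpl is again at -0.63 on day 28, where Gpihbp1 is at -0.14.

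Of the 14 lipases and abhydrolases, 7 fell and 1 rose over the hypoxia phase, with a median of -0.11. That is 50% lower and 7.14% higher, against 17.7% and 24.7% of all features. Of those that fell, only Lpl and Pnpla8 passed in each pair of replicates alone. Abhd12, which hydrolyses lysophosphatidylserine, had hypoxia arrays from -1.34 through a median of -0.31 to 0.42, and recovery arrays from -0.73 through -0.10 to 0.31. Its mean of -0.45 ± 0.24 (SD over days, n = 5, limma adjusted p = 0.000726) came from replicates 1 and 2 (-0.92), since replicates 3 and 4 had a mean of 0.02. Abhd12 passed at none of the single days, and its day 7 mean rests on 2 arrays.

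Pnpla8, a phospholipase of mitochondria and peroxisomes, was below 0 on all 20 hypoxia arrays. Their values ran from -0.51 through a median of -0.36 to -0.01, against -0.21 through -0.07 to 0.08 on recovery arrays, with some overlap. Its day means were -0.22, -0.42, -0.43, -0.28 and -0.10 over the hypoxia days, and -0.06, -0.05, -0.12 and -0.09 over the recovery days. Pnpla8 fell by 0.29 ± 0.14 over the hypoxia phase (SD over days, n = 5, limma adjusted p = 0.0011), and both of its spots were lower, at -0.19 and -0.39.

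Pnpla2, the adipose triglyceride lipase that starts the breakdown of stored fat, had hypoxia arrays from -0.64 through a median of -0.32 to 0.27. Its recovery arrays ran from -1.43 through -0.16 to 0.12, and the value of -1.43 was that of day 28 replicate 1. The mean of -0.26 ± 0.16 passed over the hypoxia phase (limma adjusted p = 0.0206) and the mean of -0.24 ± 0.27 did not pass over recovery (limma adjusted p = 0.111). Abhd13 (-0.25), the lysophospholipase Pnpla7 (-0.17) and Abhd10 (-0.14), which removes fatty acids from mitochondrial proteins, also fell over the hypoxia phase.

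Abhd17a, which removes palmitate from membrane proteins, was the only member of this group to rise. Its hypoxia arrays ran from -0.44 through a median of 0.30 to 0.92, and its recovery arrays from -0.23 through 0.15 to 0.69. The mean over the hypoxia phase was 0.28 ± 0.19 (SD over days, n = 5, limma adjusted p = 0.00399), but it was 0.54 in replicates 1 and 2 and 0.01 in replicates 3 and 4. The other 6 genes of the group, Abhd3, Abhd4, Abhd11, Abhd14a, Abhd14b and Abhd16a, did not pass, with means between -0.081 and 0.098.

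Among the genes of fatty acid activation, 2 of the 3 synthetases fell and none of the 4 thioesterases passed. Of these 7 genes 28.6% were called, against 42.4% of all features. Acsl4, the synthetase that favours arachidonate and other polyunsaturated chains, was below 0 on all 36 arrays. Its day means were -0.50, -0.41, -0.72, -0.88 and -0.31 at the hypoxia days, and -0.19, -0.40, -0.60 and -0.19 at the recovery days. Hypoxia arrays ran from -1.05 through a median of -0.48 to -0.09, and recovery arrays from -0.77 through -0.33 to -0.09, so the phases overlapped over most of their range. The mean fell by 0.57 ± 0.23 over the hypoxia phase (SD over days, n = 5, limma adjusted p = 0.000438), or 0.676 of the control level. Its 2 spots differed in size, at -0.89 and -0.24 over the hypoxia phase, and both passed. Over recovery they stood at -0.70 and 0.01.

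Acsl3, a synthetase found on lipid droplets and the endoplasmic reticulum, was below 0 on all 19 hypoxia arrays with a value. Its day means were -0.33, -0.21, -0.48, -0.35 and -0.25 at the hypoxia days, and -0.13, -0.06, -0.39 and 0.02 at the recovery days. Hypoxia arrays ran from -0.58 through a median of -0.31 to -0.04, and recovery arrays from -0.56 through -0.09 to 0.12. Acsl3 fell by 0.32 ± 0.11 (SD over days, n = 5, limma adjusted p = 0.0014), with day 21 resting on 3 arrays. Acsl5 did not pass (0.05, adjusted p = 0.41). Of the thioesterases, which release fatty acids from coenzyme A, the lowest p-values were those of Acot13 (-0.15, adjusted p = 0.0966) and Acot7 (0.17, adjusted p = 0.113).

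Fatty acid oxidation showed 2 genes lower, 1 higher and 10 that did not pass over the hypoxia phase, with a median of -0.060 over its 13 genes. The share lower was 15.4%, near the 17.7% of all features, and the share higher was 7.69%, against 24.7%. Cpt1a, the outer-membrane transferase that controls entry of fatty acids into mitochondria, had day means of -0.22, -0.26, -0.48, -0.25 and -0.05 and fell by 0.25 ± 0.15 (SD over days, n = 5, limma adjusted p = 0.00854). Cpt2, the inner-membrane transferase of the same shuttle, had day means of 0.10, 0.21, 0.42, 0.20 and 0.11 and rose by 0.21 ± 0.13 (SD over days, n = 5, limma adjusted p = 0.00528). The Cpt2 mean was 0.44 in replicates 1 and 2 and -0.03 in replicates 3 and 4, whereas the Cpt1a mean was -0.14 and -0.36 in those pairs.

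Acadm encodes the dehydrogenase of medium-chain fatty acids. Its day means were -0.16, -0.43, -0.33, -0.12 and -0.10 at the hypoxia days, and -0.05, -0.08, -0.11 and -0.14 at the recovery days. It fell by 0.23 ± 0.14 over the hypoxia phase (SD over days, n = 5, limma adjusted p = 0.00386) and was below 0 on 18 of 20 arrays. The dehydrogenases for very long (Acadvl, -0.14, adjusted p = 0.0642), long (Acadl, -0.03, adjusted p = 0.715) and short chains (Acads, 0.04, adjusted p = 0.569) did not pass.

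Synthesis had 2 genes lower, 1 higher and 7 that did not pass, with a median of -0.010. The share lower was 20%, near the 17.7% of all features, and the share higher was 10%, against 24.7%. Elovl3, an elongase of saturated very long chains best known from skin and brown fat, was above 0 on all 20 hypoxia arrays. Its day means were 0.28, 0.29, 0.34, 0.24 and 0.17 at the hypoxia days, and 0.10, 0.11, 0.41 and 0.12 at the recovery days. Hypoxia arrays ran from 0.07 through a median of 0.29 to 0.45, and recovery arrays from -0.03 through 0.17 to 0.82, the last being day 28 replicate 1. Elovl3 rose by 0.26 ± 0.06 (SD over days, n = 5, limma adjusted p = 0.00181), the smallest spread over days among the genes past 0.2 in size.

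The other elongases moved less. Elovl5, which extends polyunsaturated chains, fell by 0.17 ± 0.09 (SD over days, n = 5, limma adjusted p = 0.0107). Elovl6, which turns palmitate into stearate, fell by 0.10 ± 0.05 (SD over days, n = 5, limma adjusted p = 0.0323), and its 4 spots with values lay between -0.16 and -0.03. Its mean was -0.20 in replicates 1 and 2 and -0.01 in replicates 3 and 4. None of the desaturases Fads1, Fads2b and Fads6 passed, at -0.05, -0.05 and -0.09. Among acyltransferases and the phosphatase Lpin2 of glycerolipid synthesis, all 4 means were above 0 and none passed, with the lowest p-values for Agpat5 (0.13, adjusted p = 0.0543) and Agpat3 (0.16, adjusted p = 0.0805).

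None of the 5 carriers passed over all replicates, although Apoa1, Apoa4 and Apoc2 passed in opposite directions in the pairs of replicates. Their means over the hypoxia phase lay between 0.0038 for Fabp3, the heart-type fatty acid binding protein, and 0.095 for Apoa4 (adjusted p = 0.0891). Apoa1, the main protein of high-density lipoprotein, stood at 0.06 (adjusted p = 0.244). The 2 Fabp3 spots lay on either side of 0, at 0.13 and -0.10.

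**Figure D3:**
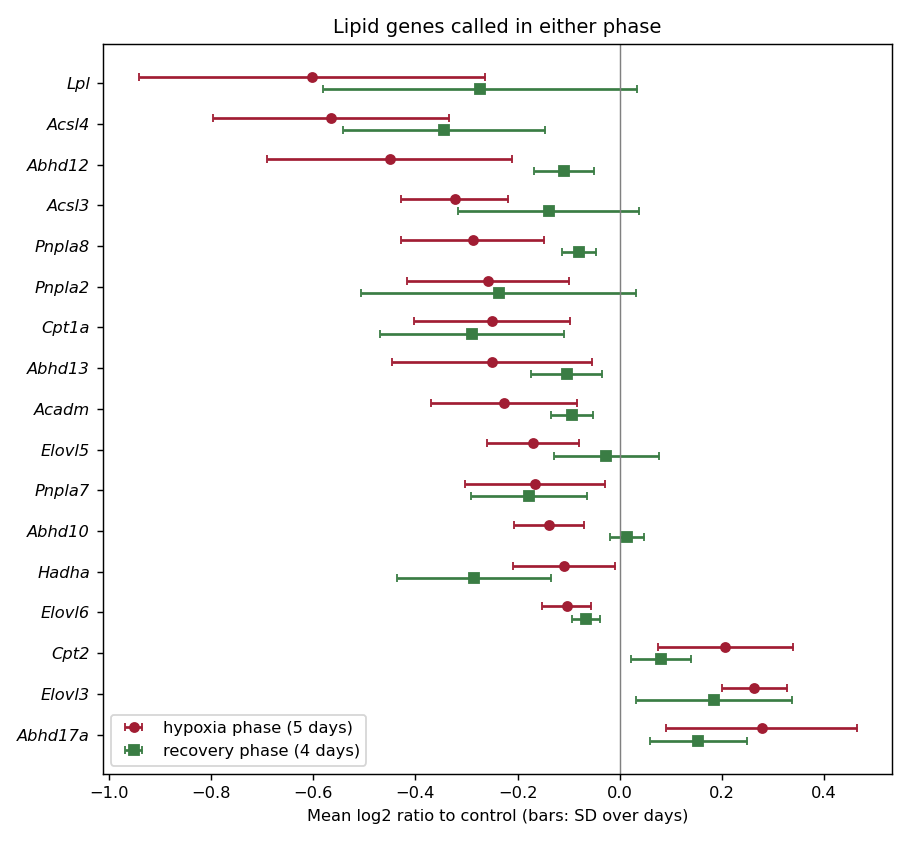
Mean log2 ratio over the 5 hypoxia days (circles) and the 4 recovery days (squares) for the genes called in either phase, with bars for the SD over days. The hypoxia mean lies farther from 0 than the recovery mean in all of them but Cpt1a, Pnpla7 and Hadha.

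Not all of these calls were carried by both pairs of replicates. Fitted on each pair alone, 6 of the 16 called genes passed in both with the same direction: Lpl (-0.62 in replicates 1 and 2, and -0.59 in replicates 3 and 4), Acsl4 (-0.60 and -0.53), Acsl3 (-0.27 and -0.35), Pnpla8 (-0.27 and -0.31), Acadm (-0.18 and -0.27) and Elovl3 (0.24 and 0.29). The means of Abhd12, Abhd10 and Cpt2 had opposite signs in the pairs. Cpt1a, Pnpla2, Pnpla7, Abhd13 and Elovl5 kept their sign and did not pass in replicates 1 and 2 alone. Abhd17a and Elovl6 did not pass in replicates 3 and 4 alone.

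A further 6 genes passed in both pairs with opposite directions, and did not pass over all replicates, where their means lay between 0.0058 for Abhd14a and 0.13 for Agpat5. Apoa4 had a mean of -0.23 in replicates 1 and 2 and 0.42 in replicates 3 and 4, and Agpat5 had -0.22 and 0.37. Abhd14b (0.45 and -0.29), Abhd14a (0.29 and -0.25), Apoa1 (0.30 and -0.14) and Apoc2 (0.21 and -0.23) ran the other way. Over all features with values in both pairs, 6.92% passed in opposite directions and 15.6% in the same direction, against 12.2% each among the 49 genes. The sign of the mean was shared by the pairs in 46.9% of the 49 genes and 56.8% of all features.

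**Figure D4:**
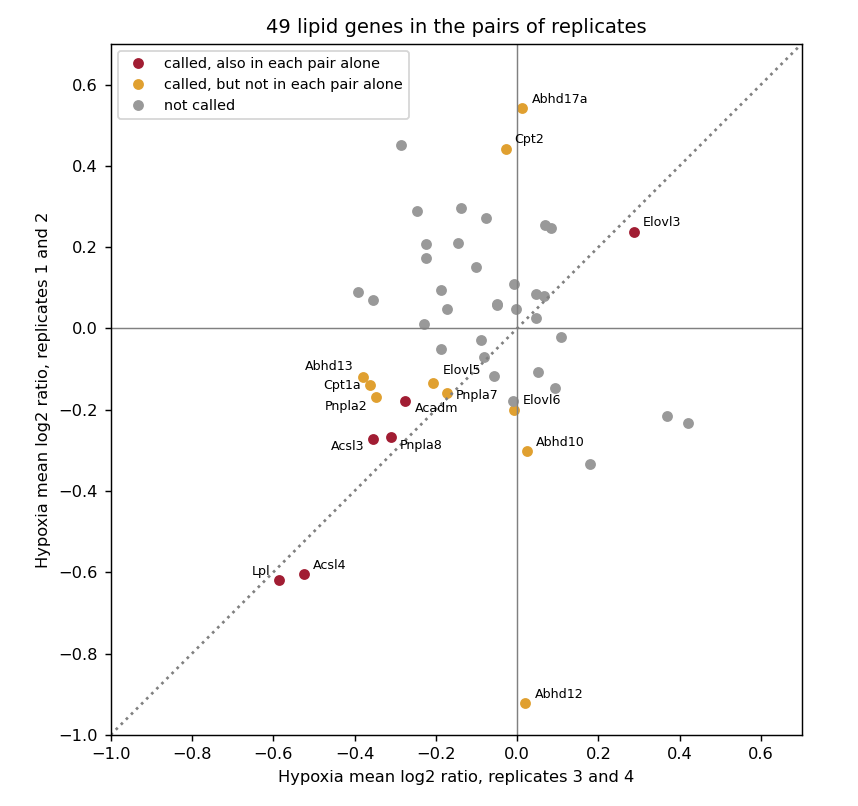
Mean log2 ratio over the hypoxia phase in replicates 3 and 4 (x axis) against replicates 1 and 2 (y axis) for the 49 genes, with the line of equality dotted. Lpl, Acsl4, Acsl3, Pnpla8, Acadm and Elovl3 (dark red) lie near that line. Abhd12, Abhd17a and Cpt2 lie near the vertical axis, with means near 0 in replicates 3 and 4.

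**Figure D5:**
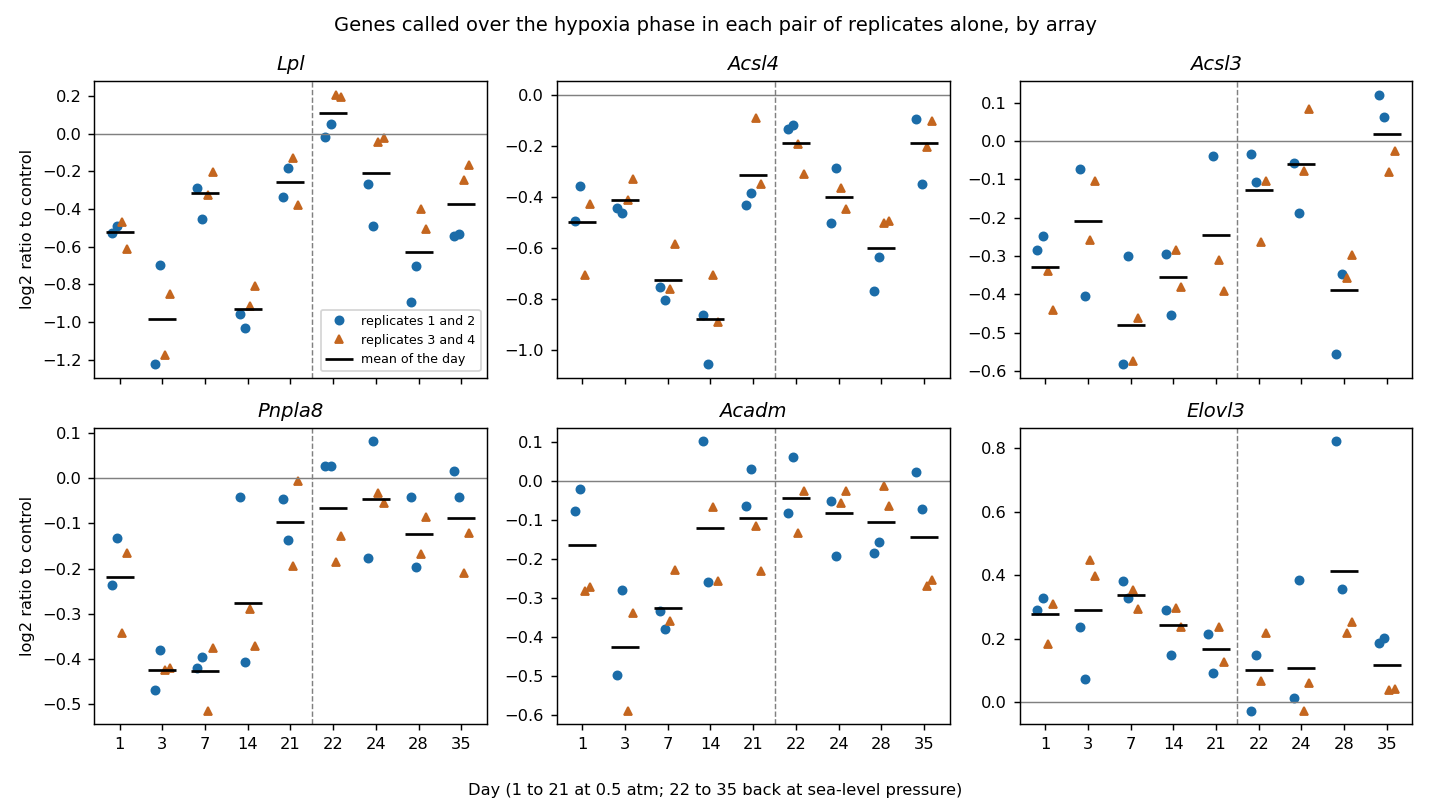
Log2 ratio of each array (circles, replicates 1 and 2; triangles, replicates 3 and 4) by day for the 6 genes called over the hypoxia phase in each pair alone, with a bar at the mean of the day. The dashed line parts hypoxia from recovery. Apart from 2 Acadm arrays, all hypoxia arrays of a gene lie on one side of 0.

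The promoters of the 4 genes that fell in both pairs and have a RefSeq window are printed to show what they share at their start. Each is the 300 bases from 250 before to 50 after the annotated start, read along the gene from GRCm38.p6. Capitals mark GCGTG or its complement CACGC, one of the core forms bound by hypoxia-inducible factors. The windows are Acsl4 at chrX:142390486-142390785 (minus strand), Acsl3 at chr1:78657575-78657874 (plus strand), Acadm at chr3:153944594-153944893 (minus strand) and Pnpla8 at chr12:44268904-44269203 (plus strand).
Acsl4: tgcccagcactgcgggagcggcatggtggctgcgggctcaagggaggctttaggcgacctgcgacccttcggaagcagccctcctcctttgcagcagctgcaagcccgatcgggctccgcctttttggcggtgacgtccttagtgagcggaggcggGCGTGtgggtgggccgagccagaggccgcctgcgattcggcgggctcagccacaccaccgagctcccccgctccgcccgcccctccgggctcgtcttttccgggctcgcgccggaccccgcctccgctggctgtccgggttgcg
Acsl3: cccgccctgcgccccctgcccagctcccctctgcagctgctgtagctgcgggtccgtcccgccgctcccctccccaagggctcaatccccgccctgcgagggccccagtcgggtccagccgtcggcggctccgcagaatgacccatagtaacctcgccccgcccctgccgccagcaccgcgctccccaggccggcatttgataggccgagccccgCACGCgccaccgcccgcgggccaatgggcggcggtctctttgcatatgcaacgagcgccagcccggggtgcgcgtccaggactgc
Acadm: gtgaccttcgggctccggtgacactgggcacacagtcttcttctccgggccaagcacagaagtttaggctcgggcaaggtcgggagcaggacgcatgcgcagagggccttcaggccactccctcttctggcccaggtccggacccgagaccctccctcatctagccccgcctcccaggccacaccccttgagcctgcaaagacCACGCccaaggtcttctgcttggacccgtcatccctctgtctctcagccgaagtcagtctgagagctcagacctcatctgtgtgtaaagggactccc
Pnpla8: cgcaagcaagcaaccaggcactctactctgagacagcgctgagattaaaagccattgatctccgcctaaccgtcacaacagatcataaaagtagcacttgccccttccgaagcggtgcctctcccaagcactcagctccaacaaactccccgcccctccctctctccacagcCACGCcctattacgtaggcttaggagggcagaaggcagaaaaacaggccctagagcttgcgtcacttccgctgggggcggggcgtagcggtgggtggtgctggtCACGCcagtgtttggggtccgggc

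All 4 windows hold the GCGTG form, Pnpla8 in 2 places and the others in 1 place, and none holds ACGTG, the other core form. Searched on both strands, GCGTG was in the windows of 26 of the 41 lipid genes with a window (63.41%), against 35.15% of all 27025 genes with one. ACGTG was in 12 of 41 (29.27%), against 21.78% of all genes. Lipid genes that did not pass hold a core too, such as Abhd16a with 5 in its window, and Cpt1a, Pnpla2 and Abhd13, which fell, hold neither form in this window. The motif AGGTCA, read by nuclear receptors, was in 10 of 41 windows (24.39%), against 18.13% of all genes, and its direct repeat with 1 base between the copies was in 0 of 41, against 0.05%. All genes here are every gene with a window, not only those on the arrays, and base composition was not matched. The shares therefore do not show an excess of binding sites. A match is a description of the letters and not evidence of binding.

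Single days were fitted on the arrays to see at which days they differed from control. These p-values measure the spread between arrays and not between mice. At day 1, 8 of 49 genes were called (16.3%, against 19.7% of all features), and 7 of them were lower. At day 3 it was also 8 of 49 (16.3%, against 23.3%), with 7 lower. At day 7, 9 genes were lower and 5 higher of 48 (29.2%, against 35.9%), and at day 14, 8 were lower and 3 higher of 48 (22.9%, against 27.8%). At day 21 only Acsl4 was called (2.08%, against 4.52%).

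After the return to sea-level pressure, none of 49 was called at day 22 (7 had an unadjusted p under 0.05, and 1.56% of all features were called). Day 24 had 3 lower genes, Acsl4, Cpt1a and Hadha (6.12%, against 2.91%). Day 28 had 10 lower and 2 higher (24.5%, against 32.1%), and day 35 had only Lpl (2.04%, against 3.16%). Day 28, after 7 days of recovery, held more lipid calls than day 21, the last day of hypoxia. The same held over all features, with 32.1% called at day 28 and 4.52% at day 21. The lipid calls of day 28 included Lpl, Acsl4, Acsl3, Cpt1a and Elovl3 in the direction they had earlier in hypoxia. Without the widest array, replicate 1 of day 28, the calls over all days numbered 57 in place of 58. Cell markers also differed at day 28, and their part in these calls was not tested. Of 6 type II markers 3 were lower there (list median -0.35). So were 2 of 4 of macrophages and monocytes (list median -0.32) and 4 of 5 erythroid genes (list median -0.46). Of 4 endothelial markers 1 was higher (list median 0.049). Among all features 13.5% were lower and 18.6% higher at that day.

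With the pairs of replicates as a random block, fewer single-day calls held, both among the lipid genes and over all features. Over all features the calls went from 2428 to 850 at day 1 and from 2842 to 1510 at day 3. They went from 4351 to 2894 at day 7 and from 3395 to 1708 at day 14. At days 21, 22, 24, 28 and 35 they went from 557, 192, 359, 3942 and 394 to 143, 74, 28, 2493 and 171. Of the lipid genes, day 1 then had 4 called, all lower, and day 3 had 4 lower and 1 higher. Day 7 had 9 lower and 2 higher, and day 14 had 5, all lower. Days 21, 22 and 35 had 0 calls, with Acsl4 at day 21 at a limma adjusted p of 0.0739 and Lpl at day 35 at 0.103. Day 24 had 2 lower, without Hadha (limma adjusted p = 0.406), and day 28 had 7 lower and 1 higher.

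Without the block, Acsl4 was lower at 7 of 9 days, Lpl at 6, Acsl3 and Cpt1a at 5 each and Pnpla8 at 4, and Elovl3 was higher at 5. With it, those counts were 6, 5, 4, 3, 3 and 3, in the same order of genes. No other gene was called at more than 2 days. Fads2b was at -0.50 at day 1 and between 0.03 and 0.17 at the other days, and Agpat3 reached 0.48 at day 7. Fabp3 was the only carrier called at a single day, at 0.165 at day 7. Acadl changed sign between its calls, at -0.20 at day 14 and 0.25 at day 28, and so did Acot7, at 0.39 at day 7 and -0.34 at day 28. None of the Fads2b, Fabp3, Acadl and Acot7 calls held with the random block, whereas that of Agpat3 did.

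The next comparison asked which lipid genes differed from control over the recovery phase as a whole. Of 49 genes, 2 were lower (4.08%, against 3.12% of all features) and none was higher (11 had an unadjusted p under 0.05 in either direction, and 1.65% of all features were higher). Cpt1a had day means of -0.21, -0.50, -0.36 and -0.08 at days 22, 24, 28 and 35, and a mean of -0.29 ± 0.18 (SD over days, n = 4, limma adjusted p = 0.0464). Hadha, the alpha subunit of the mitochondrial trifunctional protein, had -0.17, -0.39, -0.44 and -0.14, and a mean of -0.29 ± 0.15 (SD over days, n = 4, limma adjusted p = 0.0376). All 15 recovery arrays with a Hadha value were below 0, from -0.74 through a median of -0.25 to -0.01. Over the hypoxia phase Hadha stood at -0.11 and was not called. Neither Cpt1a nor Hadha was called at day 22 or day 35 alone. Acsl4 missed the threshold at -0.34 ± 0.20 (adjusted p = 0.0501). Both calls were lost when day 3, 22, 24 or 28 was left out of the fit, with adjusted p between 0.0551 and 0.195. In replicates 1 and 2 alone neither passed (adjusted p = 0.0691 for Cpt1a and 0.0928 for Hadha), and in replicates 3 and 4 alone both did (0.0165 and 0.016).

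Hadhb, the beta subunit of the same complex, was looked up after the value of Hadha was seen, and it had a recovery mean of 0.02 ± 0.06 (SD over days, n = 4, adjusted p = 0.834). At day 28 its 4 arrays lay between -0.05 and 0.20, against -0.57 to -0.18 for Hadha. The genes stand head to head, and their promoter windows overlap over 228 bases. The Hadhb window at chr5:30155003-30155302 (plus strand) is printed for that shared stretch, which is its first 228 bases. Capitals again mark GCGTG, which lies after the shared stretch, and the Hadha window holds no core.
Hadhb: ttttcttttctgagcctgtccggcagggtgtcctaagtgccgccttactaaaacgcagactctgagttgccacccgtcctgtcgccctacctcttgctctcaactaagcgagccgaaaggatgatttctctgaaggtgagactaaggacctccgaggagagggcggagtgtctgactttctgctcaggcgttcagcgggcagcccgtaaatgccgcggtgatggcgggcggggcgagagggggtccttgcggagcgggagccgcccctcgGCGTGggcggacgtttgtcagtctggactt

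The difference between the phases was tested in itself. No lipid gene passed (6 had an unadjusted p under 0.05, and 0.0329% of all features were called). The lowest p-value was that of Abhd12, with a hypoxia mean of -0.45 and a recovery mean of -0.11 (difference -0.34 ± 0.11 SE, adjusted p = 0.173). Pnpla8 differed by -0.21 ± 0.07 SE (adjusted p = 0.218) and Lpl by -0.33 ± 0.17 SE (adjusted p = 0.388). A call in one phase and none in the other is thus not shown to be a difference between them.

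Day 22 was set against day 21 to follow the first day after the return to sea-level pressure. None of 48 genes passed (3 had an unadjusted p under 0.05, and 0.609% of all features were called). Lpl had -0.02, 0.05, 0.21 and 0.19 on the arrays of day 22, against -0.34, -0.18, -0.13 and -0.38 on those of day 21. These arrays did not overlap, and the difference was 0.37 ± 0.12 SE (limma adjusted p = 0.301).

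Lipid genes outside the families above moved in both directions over the hypoxia phase. Of 16 further genes of beta-oxidation, 6 fell (37.5%, against 17.7% of all features) and 3 rose (18.8%, against 24.7%). The carnitine importer Slc22a5 (-0.35), the sterol carrier Scp2 (-0.31) and the thiolase Acat1 (-0.25) fell, and the isomerase Eci1 (0.18) rose. Of 15 further genes of synthesis, 5 fell (33.3%) and 4 rose (26.7%, near the share of all features). The lowest was Cept1 (-0.64), which makes phosphatidylcholine and phosphatidylethanolamine. Hsd17b12 (-0.30), a reductase of chain elongation, fell, and the lysophosphatidylcholine acyltransferases Lpcat3 (0.32) and Lpcat1 (0.29) rose. Of 8 genes of uptake and droplets, 37.5% were called, against 42.4% of all features: Gpihbp1 fell and Lmf1 and the receptor Lrp1 (0.17) rose. Over recovery Hsd17b12 alone of these 3 lists was called (-0.27, adjusted p = 0.0403).

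Markers of lung cells also moved over the hypoxia phase, and their part in the lipid results was not tested. Of 6 markers of type II epithelium, Slc34a2 (-0.60) and Etv5 (-0.40) fell, Muc1 (0.37) and Lpcat1 (0.29) rose, and the list had a median of 0.030. Of 4 markers of macrophages and monocytes, 3 fell, namely Cybb (-0.62), Fcgr3 (-0.33) and Fcgr1 (-0.27), with a list median of -0.30. Of 4 endothelial markers, Emcn (0.66), Gja4 (0.48) and Cdh5 (0.27) rose, with a median of 0.37, while Gpihbp1 of capillary endothelium fell. Of 5 erythroid genes, 4 rose, between 0.63 for Alas2 and 0.99 for Hbb-b1. The share called ran from 66.7% of the type II list to 80% of the erythroid list, against 42.4% of all features. Over recovery Cybb (-0.33) and Emcn (0.55) were the markers called. Markers of adipose tissue and cardiac muscle were not analysed here, since none of those listed had a value under a single symbol. Among the 49 genes, Lpl and Pnpla2 are abundant in fat and fell, and Elovl3, a gene of brown fat, rose. These 3 genes are not among the listed markers, and a part of fat in the results was not tested.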

How the data were processed

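Per the labels' protocols, lung RNA of 5 mice per condition and time point was pooled, copied with amino-allyl dUTP, coupled to dyes and hybridised in 2 colours. Per the labels, the authors scanned on a GenePix 4000A, subtracted background, removed poor spots and deposited lowess-normalised log2 ratios of median intensities. The deposited log2 values were used unchanged, so signal over background is unknown here. Spots were named by the platform annotation (9598 of 15388 had a single symbol), all 49 symbols were in the RefSeq gene table, and spots of a gene were averaged per array (9 of the 49 genes had several).

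Tests used limma 3.58.1 in R 4.3.3, two-sided, with Benjamini-Hochberg adjustment over all features and a threshold of 0.05. Phases were fitted on 9 day means for features with at least 2 arrays a day, and single days on 36 arrays with at least 3. The fits were also run on simulated data, with array noise drawn independently for each array. That noise leaves out the shared deviations within pairs of replicates, so their effect on the calls was not tested. Every gene called over a phase or at 3 or more days is named, with the 2 lowest p-values of a role with no call. The genes and lists were chosen with earlier results of these data known. Alternatives were centring, scaling, single spots, complete values, each pair of replicates, left-out replicates and days, and blocks. Same-numbered arrays of different days had deviations with a median r of 0.38, but with the other number of the pair it was 0.39 and the lowest was -0.12, so the numbers were not treated as pairs.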

Additional observations from a re-analysis of the deposited data

Results flagged for a closer look

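In 150 groups of 4 arrays, each a named gene at a day, 6 arrays lay far outside the other arrays of their day, where chance alone gives about 5% of groups. Replicate 1 was that array in 4 of them. Abhd10 was at -0.4843 on day 21 replicate 1, with the others between 0.0027 and 0.0127. Cpt2 was at -0.0498 on day 35 replicate 1, with the others between 0.027 and 0.041. Elovl5 was at 0.2529 on day 28 replicate 1, the array with the widest spread, with the others between -0.0405 and -0.0016. Pnpla2 was at -0.1961 on day 14 replicate 1, with the others between -0.5988 and -0.5563. Elovl6 was at -0.1917 on day 35 replicate 2, with the others between -0.0593 and -0.0342. Hadha was at -0.1821 on day 28 replicate 3, the highest value of a day at which it was called lower, with the others between -0.5658 and -0.5013.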

How the results depend on the processing

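The 16 calls over the hypoxia phase numbered 14 to 22 under every alternative, 16 to 19 without one replicate number and 14 to 17 without one day. A like count does not mean the same genes, since only 6 of the 16 passed in each pair of replicates alone. Abhd12 (0.0207), Abhd10 (0.0249) and Cpt2 (-0.0282) changed sign in replicates 3 and 4 alone. The 2 recovery calls varied more in number. They numbered 10 with arrays scaled to a common spread (7 lower, 3 higher), 4 with each spot on its own and 6 in replicates 3 and 4 alone, where the cause was not tested. Without one replicate number they ranged from 1 to 3, and without one day from 0 to 3. Scaling also raised the recovery calls over all features, to 3199 of 12159, against 580 as deposited. The share of higher calls among these moved to 51.7%, against 34.7% as deposited. No lipid gene differed between the phases or between days 22 and 21 under any alternative except a replicate block, fitted on arrays with day as a random block, which gave 1 lower between the phases and 6 calls over recovery. A replicate block on single days gave 77 calls in place of 58, and 16 of 36 arrays were most alike an array of their own number. The pairs of replicates as a random block (correlation within pairs 0.43) gave 35. Few arrays and unknown spot brightness limit what small ratios can show.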
